A study of Homo sapiens with 18 samples.

Results

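The genes described here are 57 genes of the G2/M and mitosis programme, chosen by symbol from the 20555 genes of the deposited expression table. They comprise cyclin-CDK components, mitotic kinases, checkpoint and kinetochore genes, the chromosomal passenger complex, mitotic kinesins, spindle and cytokinesis proteins, proliferation markers, and the transcription factors FOXM1 and MYBL2. Levels were examined in 18 subcutaneous xenograft tumors of MSTO-211H, an established human malignant pleural mesothelioma (MPM) cell line. Every tumor came from the derivative MSTO-211H [sh-YAP1], which was stably transfected with a doxycycline-dependent construct for a short hairpin RNA (shRNA) against YAP1, and was grown with Matrigel in its own SCID mouse. Mice drank 5% glucose until tumors reached about 300 mm3. The 5 tumors labelled 0 h were taken at that point without doxycycline. The remaining mice drank 5% glucose with 0.5 mg/ml doxycycline, and their tumors are labelled 24 h (n = 4), 96 h (n = 5) or, in 4 mice, 216 h. The growth protocol gives 5 tumors at 24 h, and why only 4 are present is not given in the sources used here. The study's text also describes tumors after 96 h of doxycycline and 6 days without it, and whether the 216 h tumors were on doxycycline throughout was not settled here. No tumor without the construct, and no later tumor kept on glucose alone, was analysed here. Each time point was 1 cage group, so time and cage cannot be told apart.

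YAP1 is the Hippo pathway co-activator that binds TEAD transcription factors and supports cell proliferation in many tumors. Entry into mitosis is driven by the kinase CDK1 bound to cyclin B, and exit by the anaphase-promoting complex (APC/C), which tags cyclin B and securin for destruction. Transcripts of the programme are low in resting and G1 cells and rise together in G2. The DREAM complex represses them through promoter elements called CHR in resting cells, and the MuvB core then joins MYBL2 and FOXM1 to activate them, with the factor NF-Y bound at nearby CCAAT boxes. For this reason the genes are widely read as markers of dividing cells.

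The promoters were inspected because the members are known to share these elements. RefSeq windows of GRCh38.p14, reaching from 250 bases before to 50 bases after the annotated start, were found for 48 of the 57 members. There was no window for AURKA, BIRC5, BUB3, CENPM, FOXM1, RACGAP1, TPX2, TTK and UBE2C. CHR was searched as TTTGAA or TTCGAA on both strands, and it occurred in 36 of the 48 windows (75%), in 16.6% of the first-listed windows of all 27305 genes and in 11.0% of those of the 8821 tested genes with a window. CCAAT, on both strands, occurred in 35 windows (72.9%), against 35.7% of all genes and 36.4% of the tested genes. Both motifs stood in 29 windows (60.4%), against 6.58% of all genes and 4.65% of tested genes. Within the 60 bases before the start, a CHR was present in 21 windows (43.8%), against 3.16% of all genes. The letters GGAATG, the core recognised by TEAD factors, occurred on either strand in 5 windows (10.4%), against 14.0% of all genes, a share no higher than that of all genes. None of the searched motifs contains another.

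The 120 bases before the start are shown for CCNB1, CCNB2, PLK1 and CDC20, which are textbook genes of the programme, and for AURKB and ANLN, which passed the test in these tumors, so that windows with and without the motifs can be compared. CHR and CCAAT letters, in either orientation, are in capitals.
CCNB1, chr5:69167030-69167149, plus strand: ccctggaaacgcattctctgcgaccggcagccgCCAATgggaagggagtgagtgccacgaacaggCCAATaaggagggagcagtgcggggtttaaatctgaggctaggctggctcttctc
CCNB2, chr15:59105026-59105145, plus strand: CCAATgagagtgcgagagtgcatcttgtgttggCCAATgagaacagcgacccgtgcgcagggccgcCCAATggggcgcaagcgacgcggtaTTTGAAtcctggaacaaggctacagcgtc
PLK1, chr16:23678769-23678888, plus strand: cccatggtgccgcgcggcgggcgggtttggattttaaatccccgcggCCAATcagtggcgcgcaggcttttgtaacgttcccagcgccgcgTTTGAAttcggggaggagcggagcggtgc
CDC20, chr1:43358861-43358980, plus strand: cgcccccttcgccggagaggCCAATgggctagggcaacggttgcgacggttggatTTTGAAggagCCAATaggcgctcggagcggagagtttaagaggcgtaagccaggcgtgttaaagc
AURKB, chr17:8210226-8210345, minus strand: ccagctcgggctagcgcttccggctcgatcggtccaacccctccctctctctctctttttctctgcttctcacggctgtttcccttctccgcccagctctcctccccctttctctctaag
ANLN, chr7:36389742-36389861, plus strand: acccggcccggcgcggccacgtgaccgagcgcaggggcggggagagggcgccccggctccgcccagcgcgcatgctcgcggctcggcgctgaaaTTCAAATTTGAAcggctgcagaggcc

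Counted to the motif's first base from the start, the CHR of CCNB2 and that of PLK1 both lay at -29, and CDC20 carried one at -65 between a pair of CCAAT boxes. ANLN had 2 adjoining CHR matches and no CCAAT box. The AURKB stretch held neither motif, and the CCNB1 stretch held 2 CCAAT boxes and no match to the CHR letters searched. The deposited loci of CCNB1, PLK1 and AURKB reach upstream of these stretches, and those of CCNB2, CDC20 and ANLN begin within them. For none of these genes was the start used the outermost one annotated, and the positions given depend on it. Members with and without a CHR in their window had overlapping fold changes in each comparison. At 96 h against 0 h their median log2 changes were -0.25 (32 tested members) and -0.08 (11 members), and at 216 h against 0 h they were -0.12 and -0.17. A match to these letters is not evidence of binding.

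The deposited expression values are FPKM, that is, fragment numbers divided by transcript length and by the mapped total of the library. No counts were used here, so depth is unknown and the spread between tumors is the only measure of error. Genes were kept where 4 or more tumors reached 1 FPKM, which left 11379, and these were tested by limma after adding 1 and taking log2. Adjustment of p (Benjamini-Hochberg) covered all of them, and a gene was called at an adjusted p under 0.05. Of the members, 52 were tested, and CDC25C, KIF14, KIF15, KIF20B and KIF4A fell below the filter. Adjusted p-values below are from this model unless another is named. Sequencing of exome-captured libraries left 74.9 to 84.8% of the FPKM sum on the 13 mitochondrially encoded genes, and this share was lowest at 216 h (74.9 to 76.0%). The number of genes listed at 0 was 6000 to 6174 at 0 h and 4767 to 4873 at 96 h, and both the 24 h tumors (4832 to 6491) and the 216 h tumors (5179 to 6013) reached from low to high numbers. How reads of mouse cells were treated is not given in the sources used here.

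YAP1, the target of the shRNA, averaged 7.26 ± 1.96 FPKM at 0 h (SD, n = 5), 5.81 ± 1.61 at 24 h (n = 4), 4.77 ± 1.41 at 96 h (n = 5) and 7.18 ± 1.45 at 216 h (n = 4). The groups overlapped, since single tumors ranged from 4.82 to 10.2 FPKM at 0 h and from 3.39 to 6.81 at 96 h. The log2 change at 96 h against 0 h was -0.52 (SE 0.19) with an adjusted p of 0.221. The fall of the target itself thus did not pass the test in these libraries. By RT-qPCR, the study reports knockdown of YAP1 mRNA in xenografts of this line under doxycycline, and a remaining inhibition after its removal. The FPKM values were not compared with that measurement, and a change that is not called is no evidence that the target was unchanged. Of the 12 mesothelial markers, VIM, KRT8 and KRT18 were high (1359, 184 and 191 FPKM on average at 0 h), MSLN, CALB2 and BNC1 averaged 4.06, 2.45 and 4.27 FPKM, WT1 averaged 0.198 FPKM and PDPN was listed at 0 in every tumor. Against 0 h, KRT18 was called lower at 96 h (log2 change -1.22, adjusted p = 5.76e-05) and 216 h (-1.34, adjusted p = 1.12e-05), as was KRT8 (-0.56, adjusted p = 0.00996, and -0.79, adjusted p = 0.000114), and VIM was called higher at 96 h (0.35, adjusted p = 0.0337). Markers of cell types that a host could supply were higher at 216 h in part. Whether their reads came from mouse cells or from the tumor line was not tested. The summed level of 10 fibroblast markers was 1389 to 1998 FPKM at 0 h and 3685 to 4394 at 216 h, where 7 of 10 were called higher and 1 lower than at 0 h. The sum of 13 leukocyte markers was 54.8 to 87.8 FPKM at 0 h and 103 to 180 at 216 h, with 4 of 8 tested markers called higher and 1 lower. The sums of 7 endothelial markers (4.15 to 6.63 at 0 h and 5.93 to 13.2 at 216 h) and 8 muscle markers (2.13 to 53.3 and 5.54 to 93.0) overlapped between these groups. Of 4 tested endothelial markers 1 was called higher (CDH5, log2 change 0.72, adjusted p = 0.00883), and 0 of 6 muscle markers were called. Among all tested genes, 19.7% were called higher and 3.6% lower in this comparison, so 1 of 4 is near that share. With median scaling, quantile normalization or rescaling without the mitochondrially encoded genes, 8.72%, 9.32% and 13.2% of genes were called higher. Under each, 7 fibroblast and 3 leukocyte markers were called higher. CDH5 was not called with quantile normalization. In bulk tumors, fewer dividing tumor cells and less transcript per cell cannot be told apart, and the part of these markers in the results was not tested.

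Before doxycycline the programme was expressed over a wide range of levels. In the 0 h tumors, 11 members averaged at least 10 FPKM, 28 lay from 2 to 10 FPKM and 18 below 2 FPKM. The median over all 57 members was 4.16 FPKM, beside 5.16 FPKM over the tested genes. The members here include 5 that fell below the filter, which the tested genes had passed. On this per-length scale the highest were CKS2, a small CDK-binding subunit (47.0 ± 5.50 FPKM, SD, n = 5), PTTG1 or securin, the inhibitor of separase (37.6 ± 3.47), the checkpoint protein BUB3 (32.0 ± 3.67) and CDK1 (23.1 ± 5.05). Neighbours among these 4 overlapped from tumor to tumor. CDK1 did not overlap with the next, the RhoA activator ECT2 (12.8 ± 3.30). ECT2, CDC25B, CCNB1, CKS1B, ANLN, AURKB and PRC1 followed between 10.1 and 12.8 FPKM with overlapping ranges. At the other end were the kinesins KIF2C, KIF20B, KIF4A, KIF14 and KIF15 (0.80 to 0.20 FPKM) and the phosphatase CDC25C (0.63 ± 0.44), which was listed at 0 in 1 tumor of the 216 h group. CDC20 and CKS1B share 20.3% and 12.6% of their 31-base stretches with transcripts of other annotated genes in the same orientation, chiefly processed copies. NEK2 (17.5%), AURKA (16.2%) and SPC25 (11.6%) lie in or near that range, and NUSAP1 (61.4%), PRC1 (55.2%) and KIF4A (27.3%) share more. The levels of these 8 members are less certain.

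Members differed in how far they varied among untreated tumors. The coefficient of variation at 0 h was 8.27% for the cyclin CCNB2, 9.25% for CDC20 and 9.25% for PTTG1. It was 56.3% for the checkpoint kinase TTK, 58.2% for TOP2A and 71.5% for PLK4, the kinase of centriole duplication, whose 5 values ran from 0.62 to 5.79 FPKM. The heatmap of all members shows single tumors standing out in single genes as well as whole columns that are pale or dark.

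**Figure D1:**
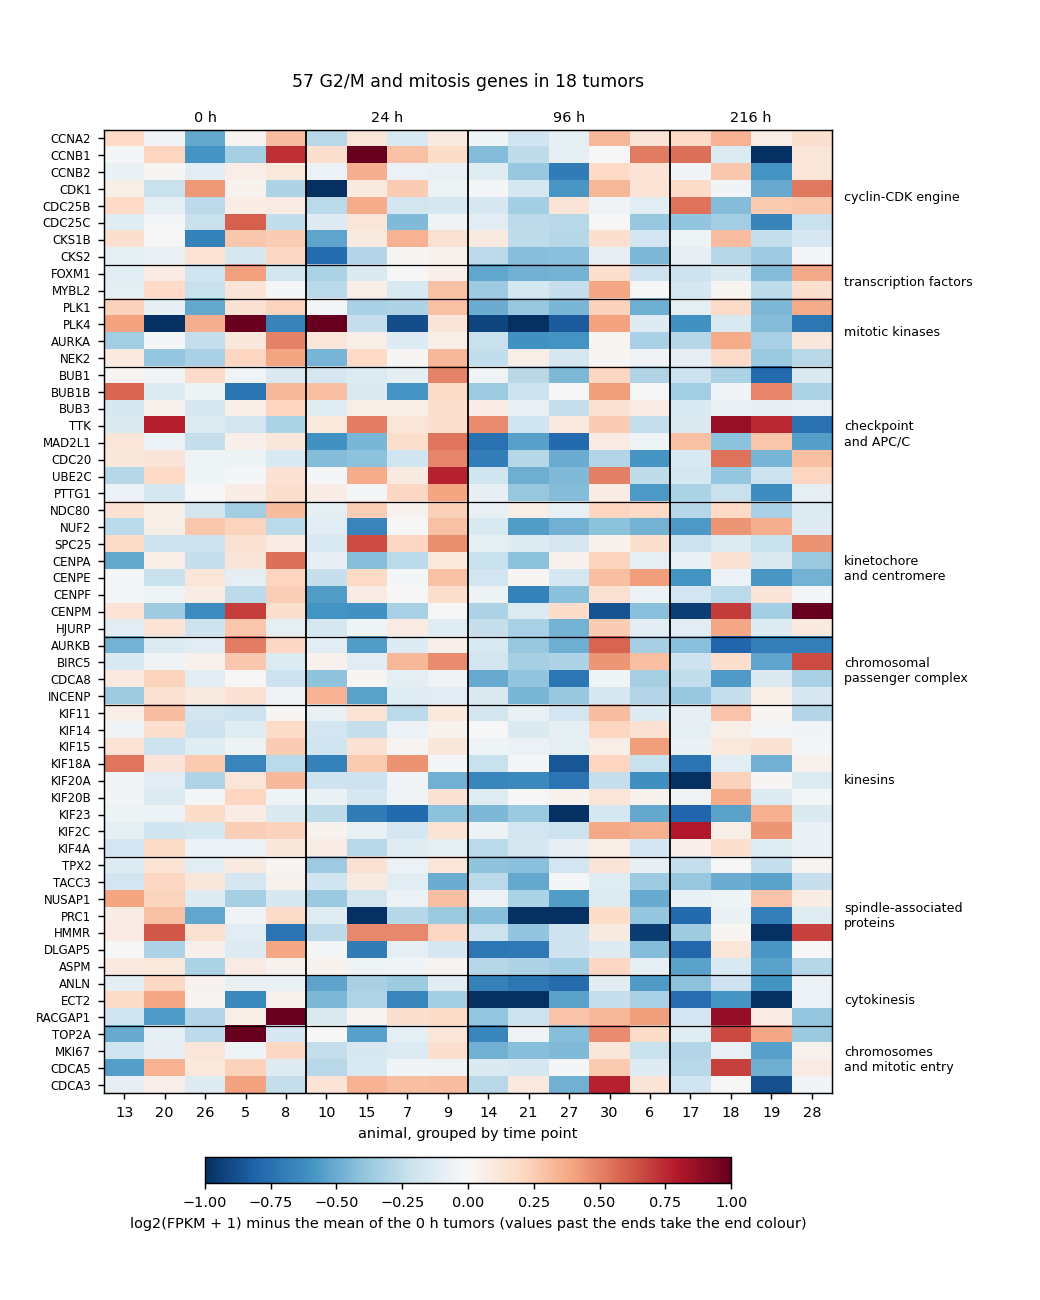
Colours give log2(FPKM + 1) of each member (rows, grouped by role) in each of the 18 tumors (columns, animal numbers, grouped by time point), minus the mean of the 5 tumors at 0 h. Most rows are blue in 4 of the 5 tumors at 96 h and near or above the 0 h mean in the tumor of animal 30.

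At 24 h of doxycycline, no member was called in either direction. Among all tested genes, 0.149% were called lower and 0.00879% higher, so few calls were made anywhere in this comparison. Quantile normalization called 0.0879% lower and 0.0176% higher. The median log2 change was -0.06 over the 52 tested members and -0.04 over all tested genes, and 33 members (63.5%) had a negative change beside 59.2% of all genes. At an unadjusted p under 0.05, 2 members (3.85%) were lower and 0 higher, beside 6.59% and 2.61% of all genes. Member log2 changes ran from -0.54 to 0.44.

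The member with the smallest adjusted p at 24 h was KIF23, the kinesin of the spindle midzone that works with RACGAP1 in cytokinesis. Its values were 4.56, 4.54, 5.55, 5.06 and 4.21 FPKM in the 0 h tumors and 3.84, 2.54, 2.36 and 3.34 FPKM in the 24 h tumors. All 4 values at 24 h lay below all 5 at 0 h, but the log2 change of -0.54 (SE 0.20) had an adjusted p of 0.400. At 96 h the values were 3.23, 3.45, 1.83, 4.11 and 3.04 FPKM, again below every 0 h tumor, and at 216 h they spread from 2.33 to 6.38 FPKM and overlapped both groups. ANLN, described below, was the other member whose 24 h and 0 h tumors did not overlap. Groups lay apart with the later one below in 2 of 52 members (3.85%) and in 2.33% of all tested genes.

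CCNB1, the mitotic cyclin B1 that activates CDK1, had the largest positive change at 24 h without passing the test. It was at 10.7, 12.8, 6.88, 8.45 and 18.7 FPKM at 0 h and at 12.3, 24.8, 13.5 and 12.5 FPKM at 24 h. The groups overlapped and the mean rested on the tumor of animal 15 at 24.8 FPKM (log2 change 0.44, SE 0.32, adjusted p = 0.734). At 96 h CCNB1 was at 7.80, 8.98, 10.1, 10.9 and 16.1 FPKM, and at 216 h at 16.4, 9.79, 4.16 and 12.0 FPKM, with means of 11.5 ± 4.61, 15.8 ± 6.06, 10.8 ± 3.18 and 10.6 ± 5.09 FPKM (SD) at the successive time points and adjusted p of 0.964 and 0.747 for 96 h and 216 h against 0 h.

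At 96 h, 45 of the 52 tested members (86.5%) had a negative log2 change against 0 h, beside 46.4% of all tested genes. The median was -0.18 over members and 0.02 over all genes. With all 57 members and no filter, 47 were negative and the member median was -0.17. Only 1 member, ANLN, was called lower and 0 higher, while 1.06% of all tested genes were called lower and 0.316% higher, so 1 of 52 is near the background. The split over all genes was 1.11% lower and 0.624% higher with quantile normalization, and 0.906% and 0.721% when rescaled without the mitochondrially encoded genes. At an unadjusted p under 0.05, 10 members (19.2%) were lower and 0 higher, beside 7.02% and 6.05% of all genes. The comparisons with 0 h share the same 5 control tumors.

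ANLN encodes anillin, the scaffold that links actin, myosin and septins in the cleavage furrow, and its locus spans chr7:36389805-36453791 (GRCh38). It was at 9.48, 12.0, 10.5, 9.71 and 9.71 FPKM at 0 h and at 6.03, 5.80, 5.59, 9.43 and 6.61 FPKM at 96 h. Every 96 h value lay below every 0 h value, although animal 30 at 9.43 FPKM came close to the lowest 0 h tumor. The log2 change was -0.57 (SE 0.14) with an adjusted p of 0.0434, and the means fell from 10.3 ± 1.03 to 6.69 ± 1.58 FPKM (SD, n = 5 each). At 24 h ANLN was at 6.79, 7.99, 7.76 and 9.40 FPKM (log2 change -0.33, SE 0.14, adjusted p = 0.492), and at 216 h at 7.47, 8.76, 6.41 and 9.80 FPKM (-0.32, SE 0.14, adjusted p = 0.118). The call at 96 h was near the threshold. It did not hold in a fit of the 0 h and 96 h tumors alone (adjusted p = 0.0680), without the filter on low values (0.0664) or when any single tumor of the 2 groups other than that of animal 30 was left out (0.060 to 0.129). All 0 h tumors had the larger number of genes at 0 and all 96 h tumors the smaller, and with this split as a covariate the log2 change was -0.62 with an adjusted p of 0.291.

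**Figure D2:**
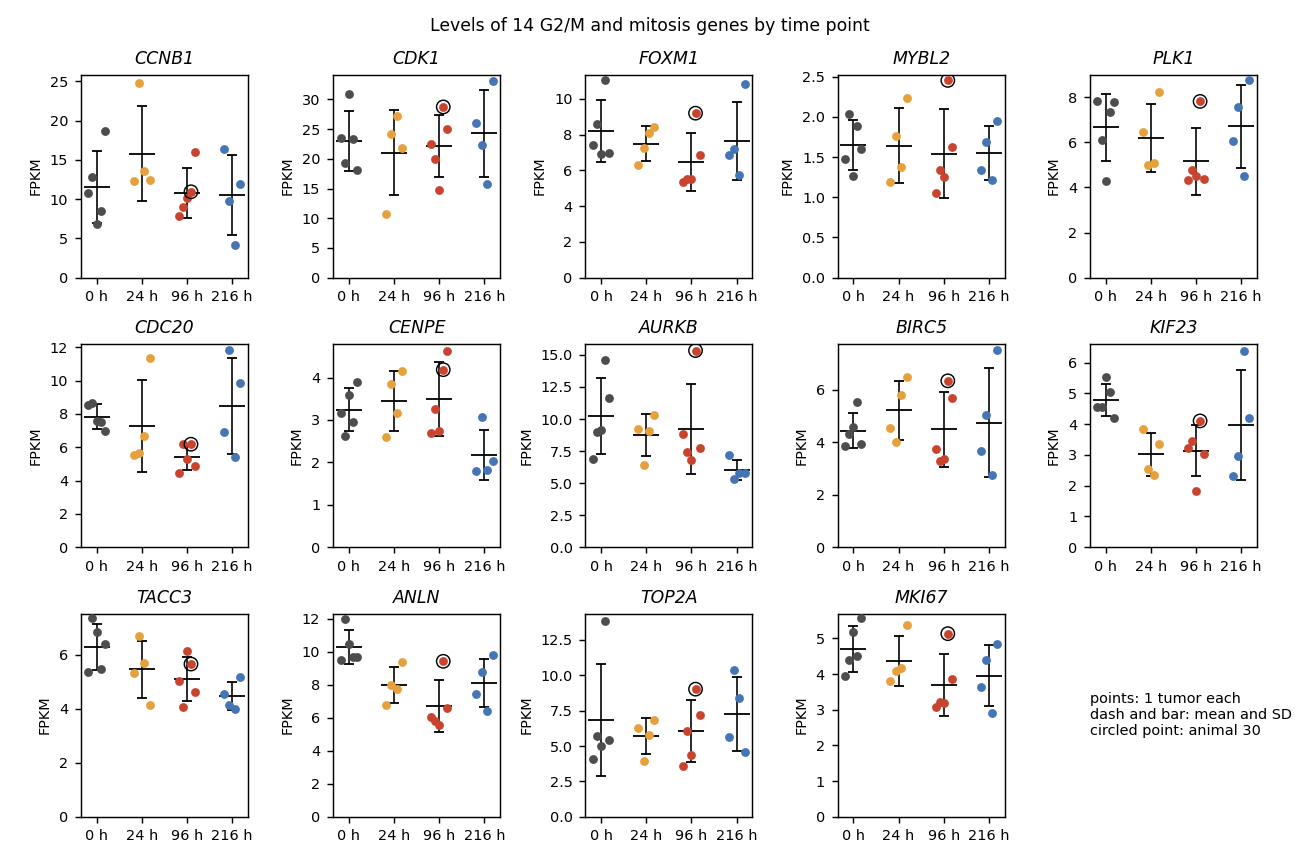
FPKM of 14 members in single tumors (points) at the 4 time points, with the group mean (dash) and SD (bar); the circled point is the tumor of animal 30. The 96 h tumors of ANLN lie below all 0 h tumors, and in PLK1, AURKB and FOXM1 animal 30 stands above the other 96 h tumors.

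By role, no further member was called at 96 h, and differences between roles were not tested. Median log2 changes were lowest for the 3 cytokinesis genes (-0.57), the 4 mitotic kinases (-0.33) and the 7 spindle-associated genes (-0.32), and all members of the last 2 of these groups were negative. The 4 genes of the chromosomal passenger complex had a median of -0.22, the 5 tested kinesins -0.22, the 8 checkpoint and APC/C genes -0.17 and the 8 kinetochore and centromere genes -0.13. FOXM1 and MYBL2 had a median of -0.19. The 7 tested cyclin-CDK genes (-0.10) and the 4 chromosome and mitotic entry genes (-0.06) were nearest to 0. ECT2, which activates RhoA for cytokinesis, had the most negative change (12.8 ± 3.30 to 7.72 ± 2.54 FPKM, log2 change -0.68, SE 0.22, adjusted p = 0.165). KIF20A, another midzone kinesin, went from 4.46 ± 0.895 to 2.65 ± 0.53 FPKM (-0.58, SE 0.19, adjusted p = 0.167) with overlapping tumors. RACGAP1, the third cytokinesis gene, had a change of 0.09.

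CDC20, the APC/C activator that triggers anaphase, was at 8.55, 8.62, 7.54, 7.53 and 6.94 FPKM at 0 h and at 4.45, 6.22, 5.26, 6.18 and 4.87 FPKM at 96 h. These groups did not overlap, but the log2 change of -0.47 (SE 0.19) had an adjusted p of 0.265. At 24 h it was at 5.52, 5.63, 6.67 and 11.3 FPKM, and at 216 h at 6.91, 11.8, 5.40 and 9.84 FPKM, both spanning the 0 h range. At 96 h, ANLN, CDC20 and KIF23 lay below all 0 h tumors (5.77% of tested members, against 2.59% of all genes), and 0 members lay above (against 1.60%).

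PLK1, the kinase of mitotic entry and spindle assembly, was at 7.81, 6.10, 4.28, 7.33 and 7.78 FPKM at 0 h and at 4.33, 4.78, 4.49, 7.81 and 4.37 FPKM at 96 h. In 4 of 5 tumors at 96 h it was below 5 FPKM, while animal 30 was at the level of the highest 0 h tumor (log2 change -0.32, SE 0.19, adjusted p = 0.515). At 24 h PLK1 was at 6.45, 5.00, 5.09 and 8.24 FPKM and at 216 h at 6.04, 7.58, 4.52 and 8.75 FPKM, with a log2 change of 0.00 against 0 h.

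FOXM1 and MYBL2, the transcription factors of the programme, did not pass the test at any time. FOXM1 was at 7.44, 8.60, 6.91, 11.0 and 6.97 FPKM at 0 h, at 6.27, 7.23, 8.07 and 8.43 FPKM at 24 h, at 5.34, 5.51, 5.53, 9.20 and 6.84 FPKM at 96 h, and at 6.85, 7.20, 5.72 and 10.8 FPKM at 216 h. Here 4 of the 5 tumors at 96 h lay below every 0 h tumor and animal 30 did not (log2 change -0.30, SE 0.17, adjusted p = 0.469). MYBL2 was lower in level, at 1.47, 2.03, 1.27, 1.89 and 1.61 FPKM at 0 h, 1.19, 1.77, 1.38 and 2.23 at 24 h, 1.05, 1.34, 1.25, 2.45 and 1.63 at 96 h, and 1.34, 1.69, 1.22 and 1.95 at 216 h. Its means stayed between 1.54 and 1.65 FPKM. Of the FOXM1 stretches, 17.2% match transcripts of other genes in the opposite orientation, wherever in the genome those genes lie. This share is 13.6% for SPC25, 13.5% for PLK1, 11.0% for CKS1B and 10.5% for CDCA3. Whether counting used strand is not known.

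The proliferation markers were not called as deposited. MKI67, the Ki-67 antigen of cycling cells, was at 3.94, 4.38, 5.17, 4.51 and 5.56 FPKM at 0 h, 3.81, 4.07, 4.17 and 5.38 at 24 h, 3.08, 3.22, 3.17, 5.13 and 3.87 at 96 h, and 3.63, 4.40, 2.91 and 4.84 at 216 h. Its log2 change was -0.29 at 96 h (SE 0.14, adjusted p = 0.383) and -0.22 at 216 h (SE 0.15, adjusted p = 0.312), with all later groups overlapping the 0 h tumors. At 216 h it was called lower with median scaling (log2 change -0.42, adjusted p = 0.0487) and quantile normalization (-0.43, adjusted p = 0.0493). TOP2A, the topoisomerase that untangles chromosomes, was at 4.09, 5.74, 5.02, 13.8 and 5.41 FPKM at 0 h, 6.25, 3.95, 5.80 and 6.87 at 24 h, 3.59, 6.05, 4.37, 9.02 and 7.22 at 96 h, and 5.65, 10.4, 8.43 and 4.59 at 216 h. No group stood apart, and 1 untreated tumor, that of animal 5, held the highest TOP2A value of all 18. CDK1, the engine of mitosis, was at 23.6, 19.3, 31.0, 23.3 and 18.1 FPKM at 0 h, 10.8, 24.2, 27.2 and 21.9 at 24 h, 22.5, 19.9, 14.8, 28.7 and 25.1 at 96 h, and 26.1, 22.3, 15.7 and 33.1 at 216 h. The log2 changes of CDK1 against 0 h were -0.18, -0.06 and 0.05 at the successive times (SE 0.25, 0.24 and 0.25, adjusted p = 0.885, 0.946 and 0.911).

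Within the 96 h group, the tumor of animal 30 stood apart from the others across most members. This was looked at after the values were seen, and it is given without a test. The tumor of animal 30 had the highest value of its group in 43 of the 57 members (75.4%), while it was highest in 18.7% of all tested genes. The mean log2(FPKM + 1) over the 57 members was 2.46 in this tumor and 2.00 to 2.19 in the other 4, whereas the mean over all tested genes was 2.88 beside 2.77 to 2.97. The mean over members was 2.23 to 2.41 at 0 h, so animal 30 exceeded every untreated tumor and the other 4 tumors at 96 h lay below all of them. Without animal 30 the median log2 change of members at 96 h against 0 h was -0.28 beside 0.02 for all genes, with 48 of 52 negative and ANLN was still the single call. At an unadjusted p under 0.05, 18 members were then lower, beside 6.62% of all genes. The tumor left out was picked because it ran against the other 4, so these values are no independent support. Smaller differences of this kind were present in other groups. Animal 9 was highest at 24 h in 26 members (45.6%, against 27.3% of all genes), and animal 19 was lowest at 216 h in 30 members (52.6%, against 23.5%).

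**Figure D3:**
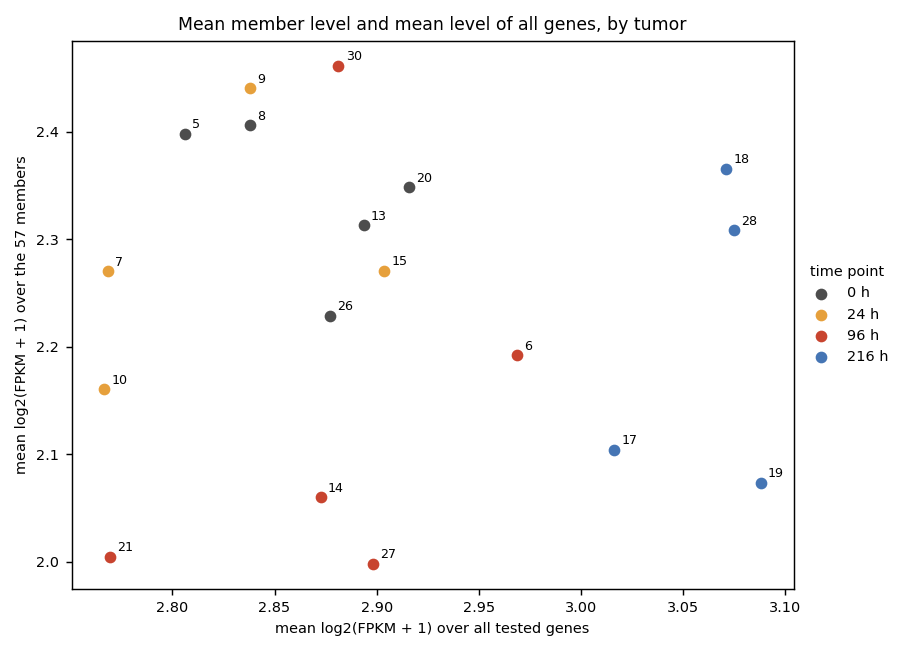
Mean log2(FPKM + 1) over the 57 members (vertical axis) against that over all 11379 tested genes (horizontal axis), 1 point per tumor with its animal number, coloured by time point. At 96 h, 4 of 5 tumors lie below all 0 h tumors on the member axis and animal 30 above them, and the 216 h tumors lie to the right of all others.

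At 216 h the distribution of all genes moved upward, and this has to be set beside the members. The median log2 change against 0 h was 0.17 over all tested genes and -0.10 over the 52 members, a difference of -0.28. Scaling each tumor to the same median moved the median of all genes to -0.04 and of the members to -0.32, a difference of -0.28 again. A negative change was found for 38 members (73.1%) beside 30.3% of all genes, and 48 members (92.3%) lay below the median of all genes. Over all 57 members without the filter, 40 were negative, and their median minus that of all genes, which was then 0.03, was -0.12.

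As deposited, 2 members were called lower at 216 h (AURKB and TACC3) and 0 higher, beside 3.6% of tested genes lower and 19.7% higher. The 2 of 52 (3.85%) are at the background share of lower calls. At an unadjusted p under 0.05, 9 members were lower and 0 higher, beside 6.3% and 29.7% of all genes. With median scaling 12 members were lower (23.1%), beside 11.2% of all genes lower and 8.72% higher. These were ANLN, ASPM, AURKB, BUB1, BUB3, CDCA8, CENPE, CKS2, ECT2, MKI67, PTTG1 and TACC3. Quantile normalization called 10 lower (beside 8.63% of genes lower and 9.32% higher), and rescaling without the mitochondrially encoded genes called 7 lower (beside 6.27% and 13.2%). AURKB and TACC3 were called under each of these 3 scalings, and 0 members were called higher under any. Which scaling is right was not settled here.

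**Figure D4:**
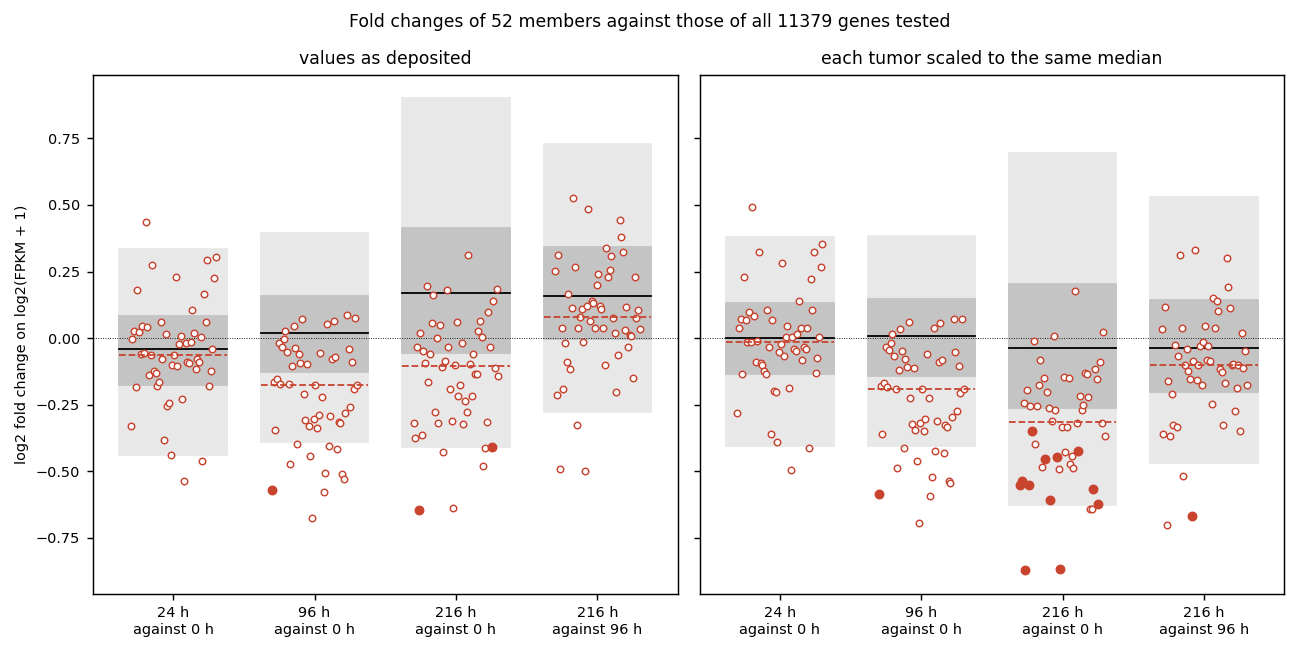
Log2 fold changes of the 52 tested members (circles in alphabetical order, filled where the adjusted p is under 0.05) in the 4 comparisons, as deposited (left) and with each tumor scaled to the same median (right). Grey boxes span the 5th to 95th and the 25th to 75th percentile of all tested genes, with their median as a black line and the members' median dashed; at 216 h against 0 h members lie below the median of all genes in both panels, with 2 and 12 called lower.

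AURKB, the kinase of the chromosomal passenger complex that corrects kinetochore attachments, lies at chr17:8204732-8210600. It was at 6.90, 8.95, 9.15, 14.6 and 11.6 FPKM at 0 h and at 7.19, 5.30, 5.83 and 5.82 FPKM at 216 h. At 216 h 3 of 4 tumors lay below every 0 h tumor, and animal 17 at 7.19 FPKM overlapped with the lowest (log2 change -0.64, SE 0.21, adjusted p = 0.0331). At 24 h it was at 9.19, 6.42, 9.03 and 10.3 FPKM and at 96 h at 8.86, 7.43, 6.80, 15.3 and 7.71 FPKM, with log2 changes of -0.18 and -0.15 that did not pass the test. The 216 h call did not hold without the filter (adjusted p = 0.0689), or when either of the tumors of animals 5 and 8 at 0 h, or of animals 18, 19 and 28 at 216 h, was left out (0.069 to 0.085).

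TACC3, which bundles kinetochore microtubules with clathrin and CKAP5, lies at chr4:1721499-1745171. It was at 5.36, 7.36, 6.83, 5.46 and 6.42 FPKM at 0 h and at 4.57, 4.14, 4.01 and 5.19 FPKM at 216 h, and these groups did not overlap. The log2 change was -0.41 (SE 0.14) with an adjusted p of 0.0360, and the means were 6.29 ± 0.87 and 4.48 ± 0.53 FPKM. At 24 h TACC3 was at 5.32, 6.70, 5.68 and 4.14 FPKM and at 96 h at 5.02, 4.07, 6.15, 5.66 and 4.63 FPKM (-0.26, SE 0.13, adjusted p = 0.412). The 216 h call did not hold in a fit of the 0 h and 216 h tumors alone (adjusted p = 0.0580), with the split by genes at 0 as a covariate (0.0627), with the tumors with more genes at 0 only (0.105), or when any of animals 20, 26 and 8 at 0 h or 17, 18 and 19 at 216 h was left out (0.059 to 0.098). BUB1, the checkpoint kinase of centromeres, was the other member whose 216 h tumors lay below all 0 h tumors (3.74 ± 0.41 to 2.73 ± 0.68 FPKM, log2 change -0.36, SE 0.17, adjusted p = 0.127). Groups lay apart with 216 h below in 3.85% of tested members and 2.94% of all genes, and with 216 h above in 0 members and 16.0% of all genes.

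AURKB's partners in the passenger complex were not called as deposited. BIRC5, or survivin, which targets the chromosomal passenger complex to centromeres, was at 3.88, 4.33, 4.59, 5.54 and 3.93 FPKM at 0 h, 4.55, 4.02, 5.81 and 6.51 at 24 h, 3.76, 3.30, 3.38, 6.35 and 5.68 at 96 h, and 3.69, 5.06, 2.76 and 7.51 at 216 h. Its log2 change at 216 h was 0.02 (SE 0.22, adjusted p = 0.961). CDCA8, or borealin, was at 1.60 ± 0.31 FPKM at 0 h and 1.08 ± 0.25 at 216 h (-0.32, adjusted p = 0.122), and it was called lower with median scaling (adjusted p = 0.0282) and quantile normalization (0.0171). INCENP, the scaffold, was at 1.79 ± 0.38 and 1.46 ± 0.32 (-0.18, adjusted p = 0.457). The difference between AURKB and these partners was not tested.

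By role, the 7 spindle-associated genes and the 3 cytokinesis genes had the lowest medians at 216 h against 0 h (-0.31 and -0.32), followed by the passenger complex (-0.25) and the kinesins (-0.24). The cyclin-CDK engine (-0.03), the kinetochore and centromere genes (-0.06), the transcription factors (-0.08) and the mitotic kinases (-0.08) were near 0 as deposited. Every role lay below the median of all genes, with differences from -0.21 to -0.49. ECT2 again had a large negative change (12.8 ± 3.30 to 7.96 ± 2.88 FPKM, -0.64, SE 0.24, adjusted p = 0.0605), and ASPM, a spindle pole protein, had one of -0.38 (SE 0.13, adjusted p = 0.0501). The largest positive change was that of KIF2C, the kinesin that depolymerises microtubules at centromeres (0.80 ± 0.28 to 1.27 ± 0.63 FPKM, 0.31, adjusted p = 0.232).

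Between 96 h and 216 h no member was called in either direction, beside 10.3% of tested genes higher and 0.747% lower at 216 h. At an unadjusted p under 0.05, 2 members were lower and 2 higher, beside 2.72% and 23.8% of all genes. The median log2 change was 0.08 over members and 0.16 over all genes as deposited, but -0.10 and -0.04 with median scaling, -0.11 and -0.03 with quantile normalization and -0.06 and 0.02 without the mitochondrially encoded genes, so the direction for the members depended on the scaling.

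CENPE, the kinetochore kinesin that moves chromosomes to the spindle equator, had the smallest adjusted p. It was at 2.70, 3.25, 2.74, 4.19 and 4.64 FPKM at 96 h and at 1.79, 3.06, 1.82 and 2.03 FPKM at 216 h. Animal 18 at 3.06 FPKM overlapped with the 96 h tumors and the other 3 tumors lay below them (log2 change -0.50, SE 0.16, adjusted p = 0.0512). With median scaling, quantile normalization or rescaling without the mitochondrially encoded genes, CENPE was called lower (adjusted p = 0.0137, 0.0124 and 0.0199), beside 2.95%, 2.77% and 1.7% of all genes called lower and 2.82%, 3.22% and 3.01% called higher. It was at 3.17, 2.63, 3.59, 2.95 and 3.89 FPKM at 0 h and 2.60, 3.86, 3.17 and 4.16 FPKM at 24 h, so the 216 h group was the low one (216 h against 0 h: -0.43, SE 0.16, adjusted p = 0.0606). CDC20 had the largest positive change, from 5.40 ± 0.79 to 8.49 ± 2.88 FPKM (0.53, SE 0.20, adjusted p = 0.0915), and overlapped between the groups.

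The other lists of the pathway differed in how far they followed the members. At 216 h against 0 h, the median minus that of all genes was -0.28 for the members and -0.26 for the other kinetochore genes. It was -0.08 for APC/C genes, -0.05 for other spindle and cytokinesis genes and 0.13 for condensin and cohesin genes. Differences between lists were not tested. The 11 DREAM and MuvB components had 0 calls at 24 h and 96 h as deposited, and at 216 h against 0 h 2 were higher and 0 lower. With median scaling, quantile normalization or rescaling without mitochondrial genes RBL2 was also called higher at 96 h, beside 0.466%, 0.624% and 0.721% of all genes. The 2 at 216 h were RBL2, the pocket protein of the repressive complex (9.98 to 21.3 FPKM on average, log2 change 1.03, SE 0.16, adjusted p = 0.00022), and LIN54, the subunit that contacts the CHR (3.40 to 4.64 FPKM, 0.35, SE 0.12, adjusted p = 0.047). The median change of the 11 components at 216 h was 0.29, a difference of 0.12 from all genes. Of 18 tested condensin and cohesin genes, 0 were called at 24 h or 96 h and 5 were higher and 0 lower at 216 h against 0 h, led by the cohesin subunits STAG1 (3.76 to 11.1 FPKM, 1.38, SE 0.21) and SMC1A (11.7 to 18.6 FPKM, 0.61, SE 0.13). Of 17 APC/C genes, 3 were higher and 1 lower at 216 h against 0 h, with ANAPC4 (4.17 to 9.62 FPKM) and ANAPC5 (22.5 to 36.9 FPKM) changed most. Of 28 other kinetochore genes, 1 was lower at 24 h (BOD1, 16.7 to 8.62 FPKM, -0.86, SE 0.17, adjusted p = 0.042), 0 were called at 96 h and 1 was lower at 216 h (SKA2, 17.8 to 12.9 FPKM, -0.45, SE 0.14, adjusted p = 0.024). Of 35 other spindle and cytokinesis genes, 0 were called at 24 h or 96 h, and 2 were higher and 1 lower at 216 h against 0 h, with MELK, a mitotic kinase-family gene, at 5.54 and 3.20 FPKM (-0.65, SE 0.23, adjusted p = 0.0485). These counts stand beside 19.7% of genes higher and 3.6% lower at 216 h against 0 h. The higher calls in DREAM and MuvB (2 of 11) and APC/C (3 of 17) are near that share. With median scaling, where 8.72% of genes were higher and 11.2% lower, 1 DREAM and MuvB gene was higher and 0 lower, 2 condensin and cohesin genes were higher and 1 lower, 1 APC/C gene was higher and 2 lower, 0 other kinetochore genes were higher and 4 lower, and 0 other spindle and cytokinesis genes were higher and 2 lower. Of the genes named, RBL2, STAG1, ANAPC4, SKA2 and MELK were called under each of the 3 scalings, SMC1A under quantile normalization and without mitochondrial genes, and LIN54, ANAPC5 and BOD1 under none.

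Among the members, 14 are on the study's list of positive YAP1-TEAD effectors and CDK1 is on its list of negative effectors. The lists were not built from these tumors. Over the 14 positive effectors the median log2 changes against 0 h were -0.11 at 24 h, -0.16 at 96 h and -0.12 at 216 h, with 9, 12 and 11 of 14 negative. Over the 37 tested members on neither list the medians were -0.06, -0.21 and -0.09. AURKB and TACC3 are on the positive list and ANLN is on neither.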

How the data were processed

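RNA of 18 xenograft tumors was measured by exome-capture sequencing. The authors deposited 1 table of FPKM values per gene and tumor. STAR and GRCh38 are named in the submitters' processing notes, and the quantification tool, the annotation and the handling of mouse reads are not given in the sources used here. FPKM divides by the mapped total, so genes taking a large share move all others. The table has 4 empty cells, read as 0. Groups came from the labelled time points, and replicates are separate animals.

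Members were matched by symbol. Members and gene lists were chosen with earlier results of these data known. The filter kept the 11379 genes that reached 1 FPKM in 4 or more tumors. Values were log-transformed as log2(FPKM + 1), and 1 model with the 4 groups was fitted (limma 3.58.1, trended eBayes, R 4.3.3). Adjusted p-values (Benjamini-Hochberg) cover every gene kept. Fold changes are on the log2(FPKM + 1) scale, which understates changes of low genes. All values per tumor are given for 10 preset members, for called members and, where none was called, for the member with the smallest adjusted p, and other lists name at most 2 called genes each. Tumors are listed within a group in the order of animals 13, 20, 26, 5 and 8 (0 h), 10, 15, 7 and 9 (24 h), 14, 21, 27, 30 and 6 (96 h) and 17, 18, 19 and 28 (216 h). Promoter windows were RefSeq's, the first listed where a gene had several.

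The model was tested on simulated data. Of 100 genes changed by 0.5 on the log2 scale among 11379, it recovered 31 at 24 h, 36 at 96 h and 34 at 216 h against 0 h and 27 at 216 h against 96 h, and of 100 changed by 1 it recovered 76, 78, 75 and 70. Alternatives were median scaling, rescaling without mitochondrial genes, quantile normalization, a pseudocount of 0.1, a 5 FPKM filter or none, eBayes without trend, fits of the compared groups alone, the number of genes at 0 (split between 5179 and 5593) as a covariate, and leaving out each tumor. A fit of tumors with more genes at 0 only was added after seeing the data. Values were handled with pandas 2.3.3 and numpy 2.4.6 in Python 3.11.15, and plots drawn with matplotlib 3.10.9.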

Additional observations from a re-analysis of the deposited data

Results flagged for a closer look

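In 56 group values (14 genes in 4 groups), 5 tumors stood apart from the rest of their group by Dixon's criterion at the 95% level, where chance alone gives about 2.8 (1 in 20). TOP2A was at 13.8 FPKM in animal 5 at 0 h, beside 5.74 for the next tumor. CCNB1 was at 24.8 FPKM in animal 15 at 24 h, beside 13.5. The other 3 were in animal 30 at 96 h, with PLK1 at 7.81 (next 4.78), AURKB at 15.3 (next 8.86) and ANLN at 9.43 FPKM (next 6.61). Genes of 1 tumor are not independent, so these 3 count as 1 tumor standing apart.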

How the results depend on the processing

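No paired analysis was possible because each mouse and cage belonged to a single time point and the labels give the groups no shared replicate numbers. The member median minus that of all genes kept its sign at 96 h and at 216 h against 0 h under every alternative; with no filter it turned to 0.04 at 216 h against 96 h. At 24 h against 0 h, 0 members were called under each. At 96 h against 0 h, the 1 member lower became 0 with no filter, with only the groups compared and with the split by genes at 0 as a covariate, and 0 to 1 when each tumor was left out. At 216 h against 0 h, the 2 members lower became 12 with median scaling, 10 with quantile normalization, 7 without mitochondrial genes, 3 (ASPM added) with eBayes without trend and with a pseudocount of 0.1, and 1 with no filter, with only the groups compared, with the split as a covariate and with the tumors with more genes at 0 only, and 0 to 2 when each tumor was left out (0 without animal 8 at 0 h or animal 19 at 216 h, 1 without animal 17 at 216 h; where the count was 2, ASPM, CENPE or ECT2 stood in place of AURKB, TACC3 or both in 5 cases). The scalings move the level of all genes by construction, and otherwise the cause was not tested. The median member change against all genes there moved from -0.28 to -0.12 with no filter. At 216 h against 96 h, 0 members lower became 1 (CENPE) with eBayes without trend, median scaling, a pseudocount of 0.1, quantile normalization and rescaling without mitochondrial genes. When each tumor was left out, the count was 0 to 1 lower (CENPE without animal 18 at 216 h or animals 14 and 27 at 96 h) and 0 to 1 higher (KIF20A without animal 17, CDC20 without animal 19). The member median minus that of all genes ranged over the left-out tumors from -0.05 to 0.03 at 24 h, from -0.30 to -0.14 at 96 h, from -0.34 to -0.22 at 216 h against 0 h, and from -0.13 to 0.01 at 216 h against 96 h. Without counts, the depth that limits low members is unknown.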
